A study of Mus musculus with 36 samples.

Results

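The genes described here are 7 mouse genes that bind, sense or move zinc: the metallothioneins Mt1, Mt2 and Mt3, the zinc-sensing transcription factor Mtf1, the zinc exporter Slc30a1 and the zinc importers Slc39a10 and Slc39a14. They are 7 of the 48709 genes in the deposited table of the series and were taken by gene name. They had been picked with their expression in these same libraries already known, so their levels and fold changes are given as a description, without a test. Expression was measured by RNA sequencing in cells of the stria vascularis, the layer of the cochlear lateral wall that secretes potassium into the endolymph, from mice aged 1, 9 and 26 months. The strain is CBA in the labels and CBA/J, an inbred strain that keeps its hearing until late in life, in the study's methods. Mice of either sex were used, with no transgene or drug at any age. Each of the 3 libraries of an age, A, B and C, was made from about 1000 cells pooled over 4 cochleae of 2 mice and was sequenced in 4 runs, which gives 36 entries for 9 libraries. Marginal, intermediate and basal cells were collected together after digestion, with trypsin in the labels and collagenase in the study's methods. A notes sheet writes 28 months beside the columns named for 26 months, and the age in the labels is used here.

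Levels are in RPKM, read counts scaled to transcript length and to the number of mapped reads, so levels of different genes are compared per length. The study's methods give only an approximate number of reads for a sample. The table holds no read counts, so exact depths per library and counting errors cannot be given. The number of genes at 0.1 RPKM or more was 14818 to 15315 per library. The labels describe A, B and C as independent pools. The study's methods give fewer biological replicates for the libraries of an age, with technical repeats, but 3 biological replicates where they count mice. Over the 1008 genes whose mean reached 50 RPKM, the SD of the log2 ratio between libraries was 0.0399 for B and C at 1 month, 0.0464 for A and C at 9 months and 0.0310 to 0.0516 for the 3 pairs at 26 months. All remaining pairs lay between 0.110 and 0.254. Libraries under 0.08 were treated as near-identical, and averaging them leaves 5 samples, with 1 at 26 months. Every SD (n = 3 libraries throughout) and every p-value therefore measures only the spread between these libraries, part of which may be technical. In pooled tissue, fewer cells of a type and less RNA per cell cannot be told apart.

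Metallothioneins are small cysteine-rich proteins that bind zinc and copper and hold them in a form the cell can release. Free zinc activates MTF1, a zinc finger transcription factor, which binds metal response elements in the promoters of metallothionein genes and of Slc30a1. SLC30 proteins (ZnT) move zinc out of the cytosol, across the cell surface or into vesicles and organelles, and SLC39 proteins (ZIP) move zinc into the cytosol. Mt1 and Mt2 are also raised by glucocorticoids and by inflammatory cytokines acting through STAT3, whereas Mt3, known as a brain metallothionein that limits neurite growth, responds little to metals.

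The metallothionein genes lie in a row on the plus strand of chromosome 8 within 43131 bases (GRCm38, GENCODE M21). Mt4, the metallothionein of stratified squamous epithelium, is at chr8:94137197-94139031, Mt3 at chr8:94152607-94154146, Mt2 at chr8:94172664-94173568 and Mt1 at chr8:94179082-94180327. The gap between Mt2 and Mt1 is 5514 bases, between Mt3 and Mt2 18518 bases, and between Mt4 and Mt3 13576 bases. Promoters are shown because the results turn on how the neighbouring genes of this cluster differ, and because MTF1 acts on such elements. Windows of 300 bases, 250 before and 50 after each RefSeq start (GRCm38.p6), were searched on both strands for TGCACNC and TGCGCNC, the core letters of the metal response element. The 2 patterns differ in a fixed letter, so no stretch counts for both on 1 strand, while matches on opposite strands may overlap. The bases before the transcript start are printed 5′ to 3′ on the plus strand, in lower case with matches on either strand in capitals, for Mt1 (chr8:94178839-94179081), Mt2 (chr8:94172368-94172617), Mt3 (chr8:94152357-94152606) and Slc30a1 (chr1:191906531-191906766).
Mt1: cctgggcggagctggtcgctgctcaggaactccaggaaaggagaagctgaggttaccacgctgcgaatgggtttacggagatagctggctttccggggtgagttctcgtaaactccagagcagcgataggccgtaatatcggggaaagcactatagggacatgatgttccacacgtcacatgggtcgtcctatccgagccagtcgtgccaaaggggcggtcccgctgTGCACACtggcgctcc
Mt2: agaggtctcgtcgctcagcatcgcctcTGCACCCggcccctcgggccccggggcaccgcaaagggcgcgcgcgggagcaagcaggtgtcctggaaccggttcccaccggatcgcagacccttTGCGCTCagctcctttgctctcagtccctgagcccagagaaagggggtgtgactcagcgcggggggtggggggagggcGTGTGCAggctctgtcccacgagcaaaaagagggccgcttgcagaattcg
Mt3: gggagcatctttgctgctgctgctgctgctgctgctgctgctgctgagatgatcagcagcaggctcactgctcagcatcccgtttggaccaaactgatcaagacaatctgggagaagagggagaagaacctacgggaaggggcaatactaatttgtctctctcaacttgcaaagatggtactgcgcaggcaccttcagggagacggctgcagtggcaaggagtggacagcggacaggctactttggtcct
Slc30a1: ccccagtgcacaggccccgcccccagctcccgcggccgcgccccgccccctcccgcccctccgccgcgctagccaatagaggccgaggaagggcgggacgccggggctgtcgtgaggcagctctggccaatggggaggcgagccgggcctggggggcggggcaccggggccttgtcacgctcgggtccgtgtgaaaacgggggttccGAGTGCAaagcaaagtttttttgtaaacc

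Over the whole window, which includes bases after the start that are not printed, Mt2 held 4 matches, Mt1 held 3, Slc30a1 held 2 and Mt3 held 1. Of 32851 mouse promoter windows of this length, 25.7% held at least 1 match, 7.11% at least 2, 1.97% at least 3 and 0.517% at least 4. With the RefSeq start as position 1 and no position 0, the matches of Mt2 began at -223, -128, -50 and 5, the last pair on the other strand. In Mt1 only the match TGCACAC at position -23 lies in the printed stretch, and the others began at 3 and 21. GENCODE lists 3 start sites of coding Mt1 transcripts, from position 94179082 to 94179241, and the bases just before the later ones are outside the window. Those of Slc30a1 began at -43 and 31, both on the other strand, and that of Mt3 at 28. The windows of Mtf1 and of both Slc39a10 entries held none of these letters. Slc39a14 was not matched to a promoter, so 6 of the 7 genes were searched and 4 held a match. Of the zinc transporter genes outside the 7, 18 were searched and 10 held a match, among them Slc30a4 and Slc30a10 with 3 each. In Slc30a10 the matches that began at -233 and -232 overlap on opposite strands. A gene with more than 1 window was counted if any of them held a match, whereas the shares above are per window. A match gives the presence of the letters only.

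The most abundant of the 7 genes at 26 months was Mt1, which encodes the widely expressed metallothionein 1. Its level was 216, 221 and 226 RPKM in libraries A, B and C at 1 month, 147, 206 and 149 at 9 months and 469, 474 and 443 at 26 months. The 26-month libraries lay about 217 RPKM or more above all 6 others, and the 9-month libraries lay below those of 1 month, with library B at 9 months only 10 RPKM under the lowest 1-month value. Means were 221 ± 4.66, 168 ± 33.7 and 462 ± 16.8 RPKM. On the log2(RPKM + 0.1) scale, used for all fold changes here, the difference was 1.48 (SE 0.11) from 9 to 26 months, -0.42 from 1 to 9 months and 1.06 from 1 to 26 months. Among all genes ordered by mean level, Mt1 moved from place 201 at 1 month and 227 at 9 months to place 80 at 26 months.

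Mt2, its neighbour and close relative, had the largest relative difference of the 7 genes. It was at 23, 23.2 and 23.1 RPKM at 1 month, at 22, 30.9 and 22.6 at 9 months and at 143, 142 and 133 at 26 months. The 1-month and 9-month libraries overlapped, and the 26-month libraries stood about 102 RPKM or more above both. Means were 23.1 ± 0.1, 25.2 ± 4.96 and 139 ± 5.69 RPKM. The log2 fold change was 2.48 (SE 0.11) for 26 against 9 months and 2.59 for 26 against 1 month. Between 9 and 1 month it was 0.11, and it turned to -0.05 without library B of 9 months and to -0.20 under median of ratios scaling. In rank of mean level Mt2 went from 2106 and 2050 to 297.

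Mt3 went the other way with age. Its level was 264, 295 and 297 RPKM at 1 month, 182, 226 and 178 at 9 months and 161, 165 and 151 at 26 months. The ages did not overlap, and each older age lay below the younger one, by 38 RPKM between 9 and 1 month and by 13.1 RPKM between 26 and 9 months at the closest libraries. Means were 285 ± 18.8, 195 ± 26.4 and 159 ± 7.2 RPKM, and the log2 fold change was -0.29 (SE 0.09) from 9 to 26 months, -0.55 from 1 to 9 months and -0.84 over both steps, or -1.10 under median of ratios scaling, past the fold threshold used for calls. The gap of 26 to 9 months is smaller than the range within the 9-month libraries. The remaining gene of the cluster, Mt4, was listed at 0 in all 9 libraries.

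**Figure D1:**
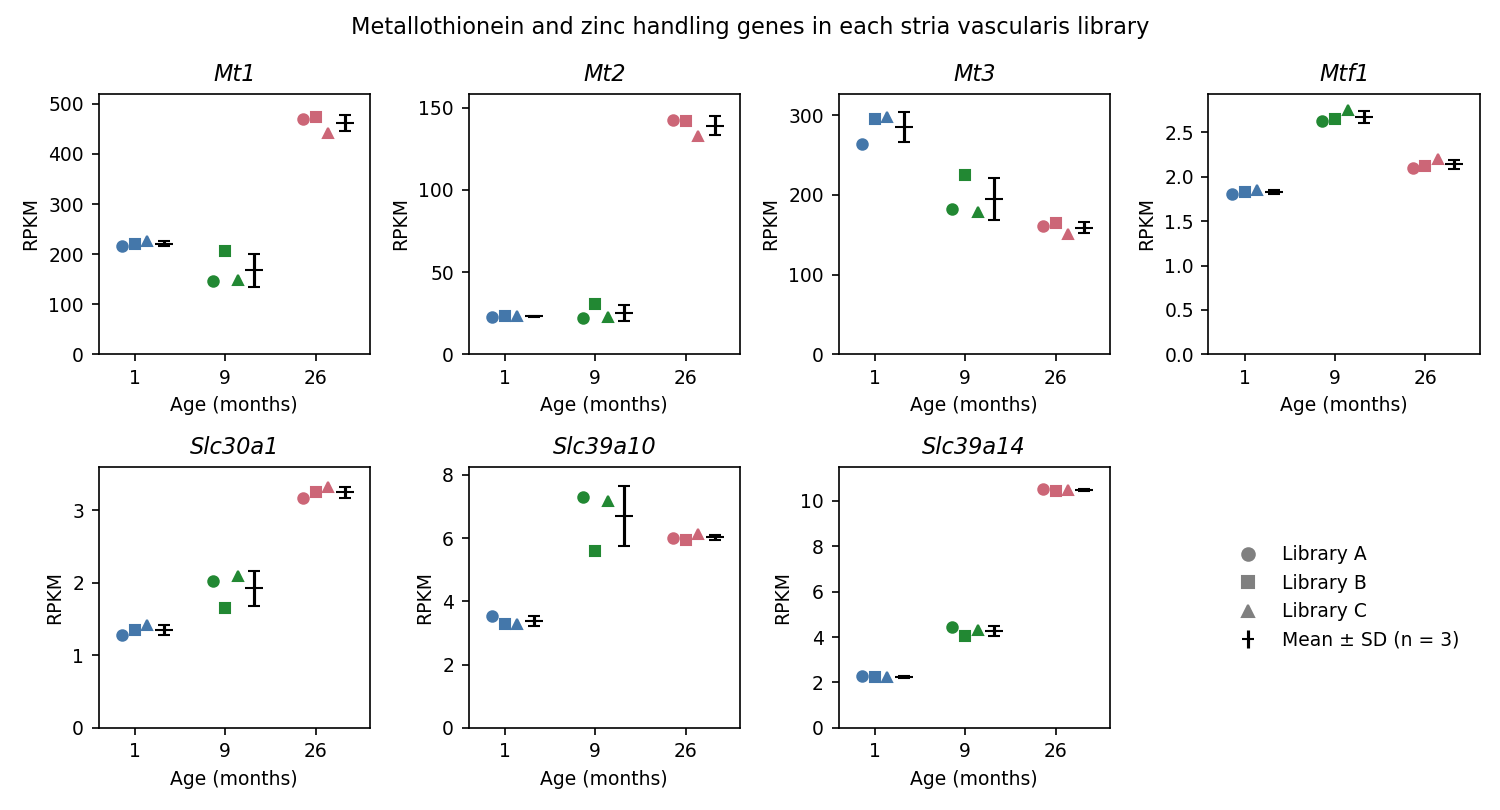
RPKM of the 7 genes in each library against age in months, with circles, squares and triangles for libraries A, B and C and the black bar for mean ± SD (n = 3). Mt1 and Mt2 stand highest at 26 months (443 to 474 and 133 to 143 RPKM), Mt3 steps down with age, and Slc39a14 steps up from about 2.25 to 10.5 RPKM.

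The make-up of the metallothionein total changed with these levels. Mt1, Mt2 and Mt3 together came to 529.6 ± 23.1, 388 ± 65 and 759.9 ± 29.5 RPKM at 1, 9 and 26 months, which was 0.146%, 0.114% and 0.218% of all RPKM. Mt3 made up 53.9 ± 1.25% of the sum at 1 month, 50.5 ± 1.59% at 9 months and 20.9 ± 0.184% at 26 months. Mt1 supplied 41.8%, 43% and 60.8% and Mt2 supplied 4.37%, 6.47% and 18.3% at the 3 ages in turn. Thus Mt3 was the most abundant metallothionein per length at 1 and 9 months and Mt1 at 26 months, with a ratio of Mt3 to Mt1 of 1.29, 1.18 and 0.344.

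The ratio of Mt1 to Mt2 also separated by age, with little spread within an age. It was 9.41, 9.53 and 9.77 at 1 month, 6.7, 6.69 and 6.58 at 9 months and 3.28, 3.33 and 3.34 at 26 months. The 3 ages did not overlap, and the means were 9.57 ± 0.185, 6.66 ± 0.0654 and 3.32 ± 0.0292. Library B of 9 months, which had 1.39 times the Mt1 and 1.38 times the Mt2 of the mean of A and C, did not stand apart in this ratio. In that library Mt3 was at 1.25 times the mean of A and C, whereas the longer genes Slc30a1, Slc39a10 and Slc39a14 were at 0.8, 0.774 and 0.92 times and Mtf1 at 0.986 times.

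**Figure D2:**
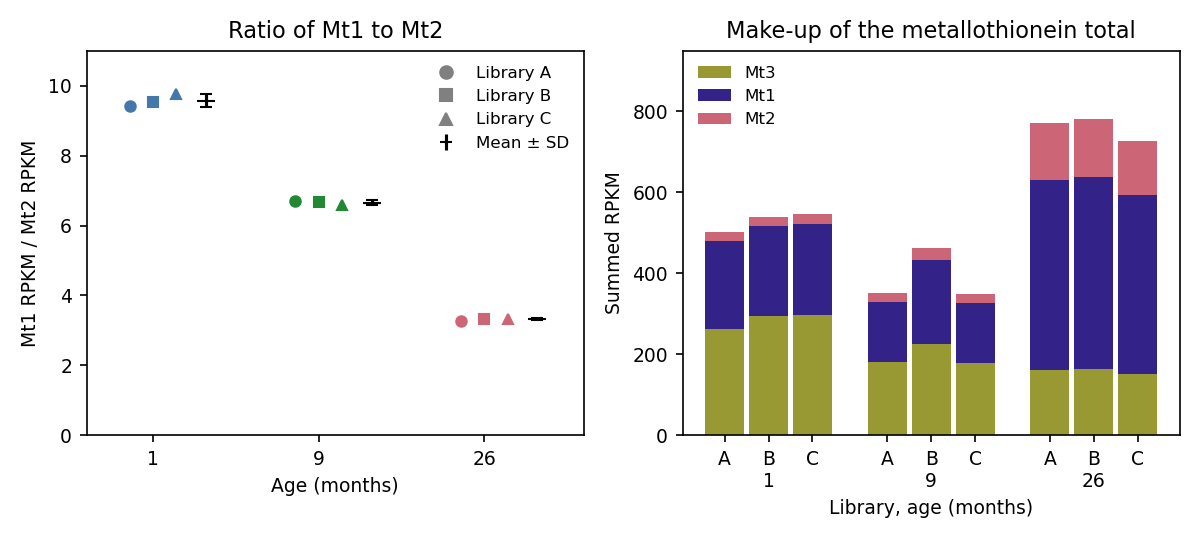
Left, ratio of Mt1 to Mt2 RPKM in each library against age in months, with mean ± SD as a black bar. Right, summed RPKM of Mt3, Mt1 and Mt2 as stacked bars for each library, where the Mt3 share is close to 20.9% at 26 months and at least 48.7% in each younger library.

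Library B of 9 months differed from A and C along gene length. With genes in 5 equal groups by exon length, its median log2 difference from A and C went from 0.11 in the shortest group to -0.14 in the longest. A trend with length was also present between ages. From 1 to 9 months the median log2 fold change was -0.09 in the shortest group and 0.62 in the longest, whereas from 9 to 26 months it lay between -0.08 and 0.00 in all 5. The metallothionein transcripts are short (exon lengths of 588 to 1246 bases) and those of Mtf1 and the transporters are long (5244 to 10550 bases). Over all 15806 genes tested the median log2 fold change was -0.03 from 9 to 26 months, 0.27 from 1 to 9 months and 0.24 from 1 to 26 months. Relative to that median, Mt1 was at -0.69, Mt2 at -0.17 and Mt3 at -0.83 for 9 against 1 month, and at 0.82, 2.34 and -1.09 for 26 against 1 month.

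Mtf1 (chr4:124802104-124849800, plus strand), which encodes the zinc sensor itself, was low at every age. It was at 1.8, 1.825 and 1.85 RPKM at 1 month, at 2.625, 2.65 and 2.75 at 9 months and at 2.1, 2.125 and 2.2 at 26 months. The ages did not overlap, with the order 9, 26 and 1 month from high to low. The log2 fold change was -0.31 (SE 0.05) for 26 against 9 months, opposite in sign to those of Mt1 and Mt2. It was 0.53 from 1 to 9 months and 0.22 from 1 to 26 months, and both turned below 0, to -0.06 and -0.27, when the trend with exon length was removed from each library. The second was also below 0 under quantile normalization, with -0.16, and median of ratios scaling, with -0.03.

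Slc30a1 (chr1:191906767-191913247, plus strand) encodes ZnT1, which exports zinc across the cell surface. Its level was 1.275, 1.35 and 1.425 RPKM at 1 month, 2.025, 1.65 and 2.1 at 9 months and 3.175, 3.25 and 3.325 at 26 months. The ages did not overlap and the level was higher at each older age, with 0.225 RPKM between the closest libraries of 1 and 9 months and 1.075 between those of 9 and 26 months. The log2 fold change was 0.73 (SE 0.09) for 26 against 9 months and 1.21 for 26 against 1 month. The value of 0.48 for 9 against 1 month was 0.06 with the length trend removed and -0.03 under quantile normalization.

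Slc39a14 (chr14:70303469-70351425, minus strand) encodes ZIP14, a cell surface importer of zinc that also carries iron and manganese. It was at 2.3, 2.225 and 2.225 RPKM at 1 month, at 4.425, 4.025 and 4.325 at 9 months and at 10.525, 10.45 and 10.475 at 26 months. The ages did not overlap, and the 3 libraries of each age lay within 0.4 RPKM of each other. The log2 fold change was 1.28 (SE 0.05) from 9 to 26 months, 0.89 from 1 to 9 months and 2.17 from 1 to 26 months. With the length trend removed these were 1.40, 0.25 and 1.65. The share of Slc39a14 in the summed RPKM of all Slc39 genes went from 1.74 ± 0.133% to 2.74 ± 0.171% and 6.72 ± 0.0177%.

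Slc39a10 (chr1:46807544-46892852, minus strand) encodes ZIP10, another importer at the cell surface. Its level was 3.55, 3.3 and 3.275 RPKM at 1 month, 7.3, 5.6 and 7.175 at 9 months and 6, 5.95 and 6.125 at 26 months. The 1-month libraries lay below all others, and the 9-month and 26-month libraries overlapped, with library B of 9 months the lowest of the 6. The log2 fold change was 0.96 from 1 to 9 months and 0.82 from 1 to 26 months, or 0.49 and 0.41 with the length trend removed, and -0.14 (SE 0.09) from 9 to 26 months. Relative to the median of all genes, Mtf1, Slc30a1, Slc39a10 and Slc39a14 were at 0.25, 0.20, 0.68 and 0.62 for 9 against 1 month, and at -0.02, 0.97, 0.58 and 1.93 for 26 against 1 month.

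The thresholds for a call were an adjusted p (limma, Benjamini-Hochberg) not above 0.1 and a log2 fold change of 1 or more in either direction. All 7 genes passed the filter on low values, 0.1 RPKM or more in at least 3 libraries. Because the 7 genes were chosen on these values, their counts are given beside the share of all genes tested and nothing is read from them. For 26 against 9 months 3 of the 7 were past both thresholds, all higher (Mt1, Mt2 and Slc39a14), where 7.33% of all genes tested were called, 3.28% higher and 4.05% lower. The 2 ages did not overlap for 6 of the 7, with 4 higher and 2 lower, where 61.7% of all genes did not overlap, 29.1% higher and 32.6% lower. For 9 against 1 month 0 of the 7 were past both thresholds, where 11.6% of all genes were called, 10.1% higher and 1.47% lower. For this pair of ages 6 did not overlap, with 4 higher and 2 lower, where 65.4% of all genes did not, 50.4% higher and 15% lower. For 26 against 1 month 4 were past both thresholds, all higher (Mt1, Mt2, Slc30a1 and Slc39a14), where 12.4% of all genes were called, 9.94% higher and 2.51% lower. Here none of the 7 overlapped, with 6 higher and 1 lower, where 74.8% of all genes did not, 53% higher and 21.7% lower. Without library B of 9 months, Slc39a10 reached 1.08 for 9 against 1 month. At 26 against 1 month Mt1 fell short of the fold threshold under median of ratios scaling, with 0.80, and so did Slc30a1, with 0.96. Slc30a1 was also short of it when the length trend was removed, with 0.84, under quantile normalization, with 0.83, and with a pseudocount of 1 RPKM, with 0.86.

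The rest of the zinc transporter families was taken whole, as 21 further Slc30 and Slc39 genes, of which 17 had at least 0.1 RPKM in at least 3 libraries and were tested. Between 26 and 9 months Slc30a2 was called higher and Slc30a10 lower, 2 of 17 against 7.33% of all genes. The median log2 fold change of the 17 was -0.00, against -0.03 over all genes. Slc30a2 encodes ZnT2, which loads zinc into secretory vesicles and is known from zinc secretion in the mammary gland. Its level was 2.45, 3.025 and 2.95 RPKM at 1 month, 4.525, 4.825 and 4.475 at 9 months and 11.625, 11.9 and 11.725 at 26 months. The ages did not overlap. Slc30a2 rose by a log2 fold change of 1.33 (SE 0.08, limma adjusted p = 9e-07) between 9 and 26 months and of 2.03 (adjusted p = 4.31e-08) between 1 and 26 months. Between 1 and 9 months its change of 0.70 was under the fold threshold. The share of Slc30a2 in the summed RPKM of the Slc30 genes was 4.95 ± 0.658%, 6.85 ± 0.931% and 15.6 ± 0.263%.

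Slc30a10, which encodes a manganese exporter, was barely detected. It was at 0.175 to 0.225 RPKM at 9 months and at 0.025 to 0.075 RPKM at both other ages, and fell by 1.1 on the log2 scale between 9 and 26 months (limma adjusted p = 0.00108). With a pseudocount of 1 RPKM that value is -0.20, under the fold threshold. Slc39a8, which encodes ZIP8, an importer of zinc and manganese, was the only one of the 17 called between 9 and 1 month, where 11.6% of all genes were called. It was at 0.875, 0.8 and 0.825 RPKM at 1 month, at 1.975, 1.65 and 2 at 9 months and at 2.025, 2.1 and 2.025 at 26 months. It rose by 1.08 (SE 0.08, adjusted p = 2.62e-06) from 1 to 9 months and by 1.2 from 1 to 26 months, but these were 0.54 and 0.74 with the length trend removed and 0.58 and 0.84 under quantile normalization, all under the fold threshold. They were under it also with median of ratios scaling, at 0.80 and 0.97, and with a pseudocount of 1 RPKM, at 0.65 and 0.73. Between 26 and 1 month Slc30a2 and Slc39a8 were called higher and Slc39a12, an importer known from brain, lower, 3 of 17 against 12.4% of all genes. Slc39a12 was at 0.125 to 0.175 RPKM at 1 month and at 0 to 0.025 RPKM at 26 months, and its log2 fold change was -1.10. With a pseudocount of 1 RPKM that value is -0.18, and without library A of 26 months -0.995, both short of the threshold.

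**Figure D3:**
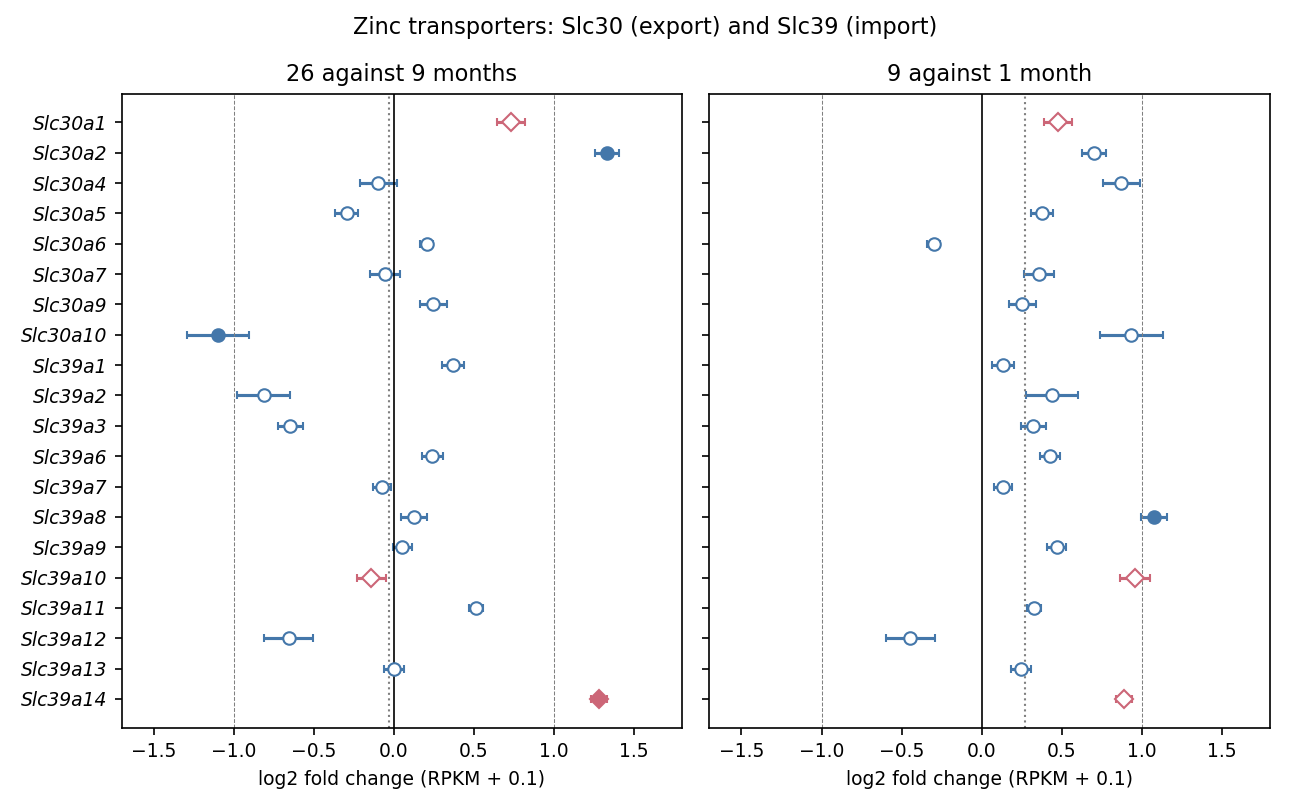
Log2 fold change (RPKM + 0.1) of the 20 tested Slc30 and Slc39 genes for 26 against 9 months (left) and 9 against 1 month (right), with bars for the SE. Diamonds are Slc30a1, Slc39a10 and Slc39a14 and circles the other 17, filled where past both thresholds. Dashed lines mark log2 values of -1 and 1 and the dotted line the median of all genes tested (-0.03 and 0.27).

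The transporters with the highest levels were not those with the largest differences. Slc39a7, which encodes ZIP7 of the endoplasmic reticulum, was the most abundant, with 72.7 to 84.4 RPKM at 1 month, 83.1 to 91 at 9 months and 81.2 to 82.5 at 26 months. Its share of the Slc39 sum was 60.8%, 55.5% and 52.5%, and its log2 fold change for 26 against 9 months was -0.08 (adjusted p = 0.289). Slc30a5, a zinc transporter of the early secretory pathway, was the most abundant exporter, with means of 19.8, 25.8 and 20.9 RPKM. Its change of -0.29 between 26 and 9 months passed the adjusted p (0.00559) but not the fold threshold. The importer Slc39a11 was higher at each older age, with means of 3.33, 4.2 and 6.04 RPKM and a log2 fold change of 0.84 for 26 against 1 month, also under the threshold. The summed RPKM was 56.8 ± 1.37, 67.8 ± 6 and 75.5 ± 0.416 over all 10 Slc30 genes, and 129.5 ± 7.35, 155.7 ± 2.68 and 155.9 ± 0.471 over all 14 Slc39 genes. Slc30a3, Slc30a8 and Slc39a5 were listed at 0 in every library, and Slc39a4 did not reach the filter, with at most 0.2 RPKM.

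Other genes known as targets of MTF1 were followed as a list of 6 (Sepw1, Csrp1, Ndrg1, Slc40a1, Gclc and Pgf). Between 9 and 26 months 0 of the 6 were called in limma, where 7.33% of all genes were, although 4 were higher and 1 lower at an unadjusted p under 0.05, and their median log2 fold change was 0.20. Csrp1, which encodes a LIM domain protein, went from 182 ± 11.4 to 97.3 ± 1.65 RPKM, a log2 fold change of -0.90 that passed the adjusted p (6.81e-07) but not the fold threshold. Ndrg1, a stress response gene, rose by 1.21 between 1 and 9 months (adjusted p = 3.37e-07), or 0.71 with the length trend removed, 0.82 under quantile normalization and 0.92 under median of ratios scaling. Pgf, which encodes a placental growth factor, rose by 1.55 (adjusted p = 3.62e-07) between 1 and 26 months, from 1.07 ± 0.115 to 3.33 ± 0.175 RPKM. Of 10 copper handling genes 9 were tested and 0 were called in the 3 comparisons by limma, where 7.33%, 11.6% and 12.4% of all genes were. At those shares a count of 0 among so few genes does not set the list apart, and 2, 9 and 9 had an unadjusted p under 0.05 for 26 against 9, 9 against 1 and 26 against 1 month. The copper importer Slc31a1 had means of 68.4, 48.5 and 60.8 RPKM, and the copper chaperone Atox1 165, 128 and 112. The median log2 fold change of the 9 copper genes was 0.01 for 26 against 9 months. It was -0.26 for 9 against 1 month and -0.24 for 26 against 1 month, where all genes had 0.27 and 0.24. In both of these comparisons 7 of the 9 copper genes were below 0 and 2 above. Of 11 genes of the NRF2 oxidative stress response 0 were called in the same 3 comparisons by limma, against the same shares of all genes. An unadjusted limma p under 0.05 was found for 6, 7 and 9 of them. The share of all genes at that unadjusted cutoff is not given here, so nothing is read from such counts in these lists. The 11 genes had a median log2 fold change of 0.00 for 26 against 9 months. The thioredoxin reductase gene Txnrd1 and the sulfiredoxin gene Srxn1 were at 0.11 and 0.25.

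Genes of 3 further lists were followed between 9 and 26 months, where 7.33% of all genes were called, 3.28% higher and 4.05% lower. Glucocorticoids and STAT3 act on Mt1 and Mt2 in other settings. A link of any of these lists to Mt1 or Mt2 was not tested. Of 8 glucocorticoid response genes 1 was called, too few to set the list apart from all genes, with a median log2 fold change of 0.55. That gene was Fkbp5, which encodes a co-chaperone of the glucocorticoid receptor, with 2.475, 2.575 and 2.575 RPKM at 9 months and 7.4, 7.125 and 7.1 at 26 months (1.47, SE 0.05, adjusted p = 6.59e-08). The transcription factor gene Zbtb16 was at 0.96 and Klf9 at 0.79, both under the threshold, although Zbtb16 passed it with 1.07 under quantile normalization and 1.01 with the length trend removed. Of the 8 genes 2 were lower at 26 months, the mTORC1 inhibitor gene Ddit4 with -0.59 (limma adjusted p = 0.000173) and Nr3c1, which encodes the glucocorticoid receptor itself, with -0.30 (adjusted p = 0.018), neither past the fold threshold. Of 12 genes of the STAT3 and acute phase list 5 were called, all higher, with a median of 0.68. Lrg1, an acute phase glycoprotein gene, went from 3.175, 4 and 3.55 RPKM to 16.1, 14.9 and 17.1, a rise of 2.14 (SE 0.08, adjusted p = 1.04e-07). Cebpb, a transcription factor gene of the acute phase, rose by 1.25, whereas Stat3 itself was at 0.55. Lcn2 rose by 1.72 from a mean of 0.333 to 1.32 RPKM, or by 0.80 with a pseudocount of 1 RPKM, after it fell by 2.37 between 1 and 9 months. Of 13 immediate early genes tested 9 were called, all higher, with a median of 1.27. Among them Fos went from 3.325, 3.65 and 3.6 to 19.7, 18.4 and 19.4 RPKM (2.41, adjusted p = 3.71e-08), Egr1 rose by 2.48 and Junb by 2.08. The same lists had medians of 0.44, 0.61 and 0.29 for 9 against 1 month, where all genes had 0.27. In this comparison 3, 1 and 3 of their genes were called higher and Lcn2 lower, where 10.1% of all genes were called higher and 1.47% lower. The 1 of 12 genes called higher in the STAT3 list does not set that list apart. Of the genes called higher, Fos, Egr1, Zbtb16 and Ddit4 fell under the fold threshold in some alternative settings. Their lowest values were 0.73, 0.84, 0.65 and 0.89. Per1 and Cebpb stayed past it, with lowest values of 1.28 and 1.09. These lists were chosen with earlier results of these libraries known.

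**Figure D4:**
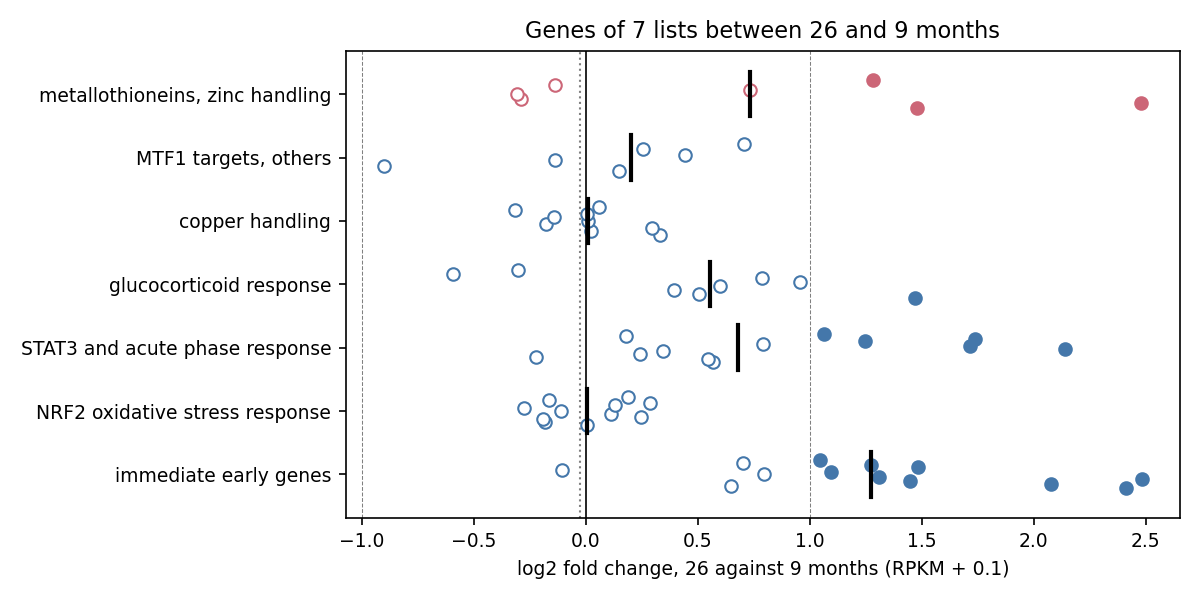
Log2 fold change for 26 against 9 months of each tested gene in 7 lists, one point per gene (vertical offsets are for display), filled where past both thresholds, with the list median as a black bar. Dashed lines mark -1 and 1 and the dotted line the median of all genes (-0.03). The immediate early genes have a median of 1.27, and the copper handling and NRF2 lists lie around 0.

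The genes with the most similar course over the 9 libraries were sought among 6413 genes whose mean reached 5 RPKM, by the Euclidean distance between log2(RPKM + 0.1) values centred on each gene's mean. Closest to Mt1 were Jund (0.41), Tbcc (0.43) and Usp2 (0.47), where the median gene was at 1.95. Jund, an AP-1 subunit gene, had means of 74.5, 66.9 and 181 RPKM. Closest to Mt2 were Junb (0.60), Lrg1 (0.67), Plk3 (0.73) and Cd74 (0.82), where the median was 3.53, and Mt1 took place 43 with 1.90. Closest to Slc39a14 were Mpeg1 (0.27), Akt1 (0.34) and Slc30a2 (0.40), where the median was 2.55. Mpeg1, a macrophage gene, had means of 2.21, 4.58 and 10.1 RPKM. Closest to Slc39a10 were Met (0.07), Stim2 (0.10) and Nfib (0.10), where the median was 1.23. Met, which encodes the hepatocyte growth factor receptor, had means of 36.3, 69.1 and 63.3 RPKM. These distances share libraries, depth and the length trend between genes and describe the course only.

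The cell types of the pools were read from marker lists. Strial cells were present at each age, with summed RPKM of 4016 to 4348 for 7 intermediate cell markers, 1820 to 2318 for 6 marginal cell markers and 340 to 831 for 5 basal cell markers. Basal cell markers came to 340 to 352 RPKM at 1 month, 792 to 831 at 9 months and 371 to 375 at 26 months. Gjb2 made up most of each sum, with means of 305, 740 and 336 RPKM. Between 9 and 26 months 4 of the 5 basal cell markers were called lower. Markers of other cells also differed between ages, not all in the same direction as Mt1, Mt2 and Slc39a14. The 8 macrophage markers summed to 150 to 156 RPKM at 1 month, 322 to 335 at 9 months and 1093 to 1112 at 26 months, most of it Lyz2, and 4 of 8 were called higher and 0 lower between 9 and 26 months. Csf1r, the gene of a macrophage growth factor receptor, was at 5.15 to 5.55, 4.65 to 5.35 and 5.275 to 5.825 RPKM. The 5 red cell markers summed to 3064 to 3180, 366 to 457 and 670 to 714 RPKM, and the 6 fibrocyte markers to 107 to 109, 509 to 544 and 222 RPKM, with all 6 fibrocyte markers called lower between 9 and 26 months. Glia and nerve markers summed to 38.5 to 40, 54.7 to 60.2 and 97.5 to 99.6 RPKM, endothelial markers to 9.15 to 9.93, 19.4 to 20.4 and 20.5 to 21.1 RPKM, and hair cell markers to 2.9 RPKM or less. No marker of these lists was at 0 in all libraries. The part of these cells in the levels of the metallothioneins and transporters was not tested.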

How the data were processed

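Mouse stria vascularis RNA from 9 libraries, 3 per age, was amplified with a SMARTer kit, and Nextera libraries were run on a HiSeq 2500. The authors mapped paired reads to mm10 (GRCm38) with CLC Genomics Workbench, the version of which is not given in the sources used here, and deposited RPKM for 48709 genes. All values are multiples of 0.025, and 1 value stands for the 4 runs of a library. The authors' own p-values and log2 fold changes in the same table were not used, and 0 columns of values for single libraries were left out.

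The deposited RPKM were used as log2(RPKM + 0.1), and the 15806 genes that reached 0.1 RPKM in 3 or more libraries were kept. A model with a mean for each age was fitted over the 9 libraries by limma 3.58.1 under R 4.3.3 (empirical Bayes with a mean-variance trend, two-sided, Benjamini-Hochberg over all genes tested). The study's methods give the thresholds of 0.1 and 1. The method was tested on simulated data with independent libraries, which does not cover the near-identical libraries of these data. Exon lengths and coordinates came from GENCODE M21, which matched 48349 genes, and promoters from RefSeq (GRCm38.p6). Python 3.11.15 with pandas 2.3.3, numpy 2.4.6 and matplotlib 3.10.9 made tables and plots.

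The 7 genes, the gene lists and the tests were chosen with earlier results of these data known. Named beside the 7 genes are all Slc30 and Slc39 genes and Mt4, up to 4 genes of each other list that average 1 RPKM or more and have the smallest p of limma's F-test over the ages, and the 5 genes closest in course to Mt1, Mt2, Slc39a10 and Slc39a14. Csf1r, Sepw1, Gclc, Ddit4, Nr3c1 and Dct fall outside this rule and were named after their values were seen. Alternatives were other pseudocounts and filters, median of ratios scaling, quantile normalization, leaving the 50 most abundant genes out of the scaling, limma without trend, an adjusted p of at most 0.05, a block for the library letter, averaging of near-identical libraries, removal of the trend with exon length and leaving out each library.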

Additional observations from a re-analysis of the deposited data

How the results depend on the processing

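For 26 against 9 months 1159 genes were called, and 311 with a pseudocount of 1 RPKM, 1758 with a pseudocount of 0.01 RPKM and 639 with a filter of at least 1 RPKM. For 9 against 1 month 1828 were called (1595 higher and 233 lower). A pseudocount of 1 RPKM gave 453, a filter of at least 1 RPKM 1218, quantile normalization 995 (531 higher, 464 lower), median of ratios scaling 1141 (746 higher, 395 lower) and removal of the length trend 898 (574 higher, 324 lower). For 26 against 1 month 1967 were called (1571 higher and 396 lower), with 564 at a pseudocount of 1 RPKM and 1255 at a filter of at least 1 RPKM. Quantile normalization split its calls as 802 higher and 740 lower, median of ratios scaling as 926 and 692, and removal of the length trend as 829 and 557. Over all genes the median was 0.27 and 0.24 (log2) before these 3 scalings and within 0.04 of 0 after them. Of the zinc transporters outside the 7 genes, 2 were called between 26 and 9 months, and 1 with a pseudocount of 1 RPKM, 4 with 0.01 RPKM and 1 with a filter of at least 1 RPKM. Between 9 and 1 month 1 was called, and 0 with a pseudocount of 1 RPKM, quantile normalization, median of ratios scaling or removal of the length trend, 2 with a pseudocount of 0.01 RPKM, and 1 to 2 with each library left out in turn. The 2 came without library A or B of 1 month, where Slc30a10 was added with 1.02, or without library B of 9 months, where Slc30a4 was added with 1.03. Between 26 and 1 month 3 were called and 1 with a pseudocount of 1 RPKM. The replicate block by library letter gave 1162, 1828 and 1969 calls and the same 2, 1 and 3 counts of transporters. The letters were not taken as pairs, since same-letter libraries of 2 ages deviated together with r from -0.05 to 0.23 and over 0.1 in 2 of 9 pairs. With near-identical libraries averaged, 1743 genes were called between 9 and 1 month, of which 1647 were shared with the calls above. The 1125 and 1952 calls against 26 months then rest on 1 sample at that age, assumed to vary like the other ages, and say nothing about stability. Among fold changes of named genes outside the 7, 4819 values kept their side of the thresholds, 68 dropped under them and 18 passed them. Sign was followed only for genes called with the settings used above, and 0 of these values reversed. Fold changes of genes not called did change sign in places. Slc30a5, for example, went from 0.38 to -0.15 for 9 against 1 month when the length trend was removed. Depth, given only approximately and not for each library, limits what can be said of genes under about 0.2 RPKM.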
